A study of Mus musculus with 18 samples.

Results

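The BCL2 family genes *Mcl1*, *Bcl2*, *Bcl2l1*, *Bcl2l11*, *Bbc3*, *Pmaip1*, *Bid*, *Bmf*, *Bax* and *Bak1* were followed in splenic B cells at rest and during LPS culture. These 10 genes were taken by symbol and NCBI gene ID, not by their values, from a table of 16545 genes, and all 10 were above 0 FPKM (fragment counts scaled to transcript length and library size) in each of the 18 libraries. The libraries are from purified B cells of 2 genotypes, control (labelled CON) and *Zbtb24* B-CKO (B-CKO), with 3 libraries per genotype at D0, D1 and D2 of LPS, or 0 h, 24 h and 48 h. B-CKO mice are Zbtb24loxp/loxp and carry 1 allele of a Cre active in B cells, which removes a *Zbtb24* exon there, and for controls the methods of the study name littermates with the same Cre allele and wild type *Zbtb24*, both on a C57BL/6 background. The labels say only CON, the age of the mice is not given in the sources used here, and the methods count 1 mouse per replicate. Cells were cultured from 0 h on, so LPS, culture and time cannot be told apart.

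BCL2 family proteins decide whether the outer mitochondrial membrane is opened. MCL1, BCL2 and BCL-XL (encoded by *Bcl2l1*) hold the effectors BAX and BAK in check, whereas the BH3-only proteins BIM (*Bcl2l11*), PUMA (*Bbc3*), NOXA (*Pmaip1*), BID and BMF bind the pro-survival proteins or activate the effectors, after which cytochrome c leaves the mitochondria and caspases are activated. Mature B cells depend on MCL1 and BCL2, and BIM limits their number. Many of these proteins are also controlled by phosphorylation and degradation, which mRNA levels do not show.

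Promoter windows are shown for members whose mRNA moved in opposite directions with LPS, and for *Mcl1*, the member that passed the genotype test. RefSeq windows (GRCm38.p6, the mm10 assembly), from 250 bases before to 50 bases after a transcript's start, were found for 9 members (16 windows), and *Pmaip1* had no entry. Both strands were searched for GTAAACA (a FOXO site), CACGTG (an E-box, which MYC and other factors bind), CAGGACCT (the core letters of the ZBTB24 motif), and the NF-kappaB site and the p53 half-site in their consensus form. Of the 2 *Bcl2l11* and 3 *Bbc3* windows, those with the FOXO letters are shown, and the other *Bcl2l11* window held no match. The capitals below mark matches, and no 2 matches in these 4 windows overlap. The windows are *Bcl2l11* at chr2:128125788-128126087 (plus strand), *Bbc3* at chr7:16310011-16310310 (plus strand), *Bax* at chr7:45466849-45467148 (minus strand) and *Mcl1* at chr3:95658471-95658770 (plus strand).
Bcl2l11: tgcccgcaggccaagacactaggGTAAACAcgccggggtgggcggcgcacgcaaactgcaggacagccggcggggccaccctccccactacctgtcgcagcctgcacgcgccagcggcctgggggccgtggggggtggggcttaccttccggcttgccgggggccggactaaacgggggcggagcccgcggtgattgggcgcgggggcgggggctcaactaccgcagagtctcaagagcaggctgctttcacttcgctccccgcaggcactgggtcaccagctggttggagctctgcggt
Bbc3: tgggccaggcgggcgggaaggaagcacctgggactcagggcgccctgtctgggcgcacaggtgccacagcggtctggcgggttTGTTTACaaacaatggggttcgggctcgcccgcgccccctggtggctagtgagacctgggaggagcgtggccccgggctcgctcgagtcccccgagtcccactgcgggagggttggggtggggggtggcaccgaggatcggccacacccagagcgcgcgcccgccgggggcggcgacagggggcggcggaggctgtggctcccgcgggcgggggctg
Bax: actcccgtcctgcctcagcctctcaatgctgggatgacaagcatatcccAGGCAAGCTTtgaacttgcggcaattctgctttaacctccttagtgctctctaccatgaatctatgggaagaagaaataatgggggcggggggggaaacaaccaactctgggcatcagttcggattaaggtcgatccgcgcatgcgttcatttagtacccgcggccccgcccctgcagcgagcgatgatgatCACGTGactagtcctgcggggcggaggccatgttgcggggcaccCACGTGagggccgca
Mcl1: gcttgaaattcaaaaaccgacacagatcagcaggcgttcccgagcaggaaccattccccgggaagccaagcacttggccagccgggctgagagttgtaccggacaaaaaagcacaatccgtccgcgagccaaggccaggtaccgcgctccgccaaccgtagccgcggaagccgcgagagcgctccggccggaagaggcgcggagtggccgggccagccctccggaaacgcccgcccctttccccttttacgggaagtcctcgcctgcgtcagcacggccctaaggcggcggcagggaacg

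The FOXO letters start 227 bases before the start in the *Bcl2l11* window and 167 bases before it in the *Bbc3* window, on opposite strands, and 3.65% of all 32851 windows hold them. The *Bax* window holds the E-box letters 9 bases before and 35 bases after the start, and a p53 half-site, its first capitals, 201 bases before it. E-box letters are in 7.15% of all windows and p53 half-sites in 8.36%. Another *Bbc3* window holds an E-box, and a *Bmf* window a p53 half-site. The NF-kappaB consensus, in 4.51% of windows, matched in *Bcl2l1*, *Bbc3* and *Bmf*. The ZBTB24 letters were in 0 of the 16 windows and in 1.99% of all windows, and that of *Cdca7*, a known ZBTB24 target, holds them 89 bases before the start. No motif matched in the *Mcl1* window. A match describes letters only, and binding was not measured.

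At each time the *Zbtb24* level was lower in the 3 B-CKO than in the 3 control libraries, with log2(FPKM + 1) differences of -1.78 (0 h), -0.64 (24 h) and -0.50 (48 h) and limma adjusted p = 0.120, 0.0586 and 0.267. The 6 B cell markers summed to 3944 to 5230 FPKM at 0 h and to 2045 to 2648 FPKM later, and 4 of 6 in control and 5 of 6 in B-CKO were lower at 24 h than at 0 h. The T cell, NK cell and myeloid lists summed to at most 13.0, 15.9 and 9.94 FPKM, the erythroid list to between 7.51 and 71.1 FPKM with its highest sums at 0 h. The 5 plasma cell markers summed to 123.1 to 158.4 FPKM at 0 h, 71.95 to 90.6 FPKM at 24 h and 140.3 to 249.9 FPKM at 48 h, and on the second day 5 of 5 rose in control and 3 of 5 in B-CKO. Of the markers tested, 7 of 7 T cell, 4 of 5 NK cell and 4 of 5 erythroid genes were lower at 24 h than at 0 h in controls, and the part of all these markers in the results with LPS was not tested. Relative depth, read from the steps between low values, was 0.877 to 0.911 at 0 h and 1.012 to 1.113 later. The median SD of a gene between the 3 libraries was 0.169 (control) and 0.158 (B-CKO) on the log2 scale in resting cells. It was 0.0545 to 0.0852 in the cultured groups, so resting levels varied most between libraries and their group means are the least precise. The source of this wider spread was not tested.

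Levels per transcript length differed widely among the members in resting cells. In controls at 0 h the order was *Mcl1* (227 ± 75.5 FPKM, SD, n = 3), *Bax* (91.0 ± 7.75), *Pmaip1* (44.5 ± 4.43), *Bcl2* (33.3 ± 2.12), *Bcl2l11* (31.6 ± 16.7), *Bak1* (30.3 ± 6.58), *Bid* (24.7 ± 6.72), *Bmf* (16.7 ± 2.33), *Bbc3* (9.24 ± 4.78) and *Bcl2l1* (2.58 ± 0.442). Neighbours from *Bcl2* to *Bbc3* overlapped in their libraries, and the neighbours above and below did not. *Mcl1* lay above 98.25% of the 15007 genes detected in these libraries and *Bcl2l1* above 40.6%. By 24 h the lowest member was *Bmf*, at 4.89 ± 0.223 FPKM, and by 48 h *Pmaip1*, at 5.65 ± 0.0404 FPKM.

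**Figure D1:**
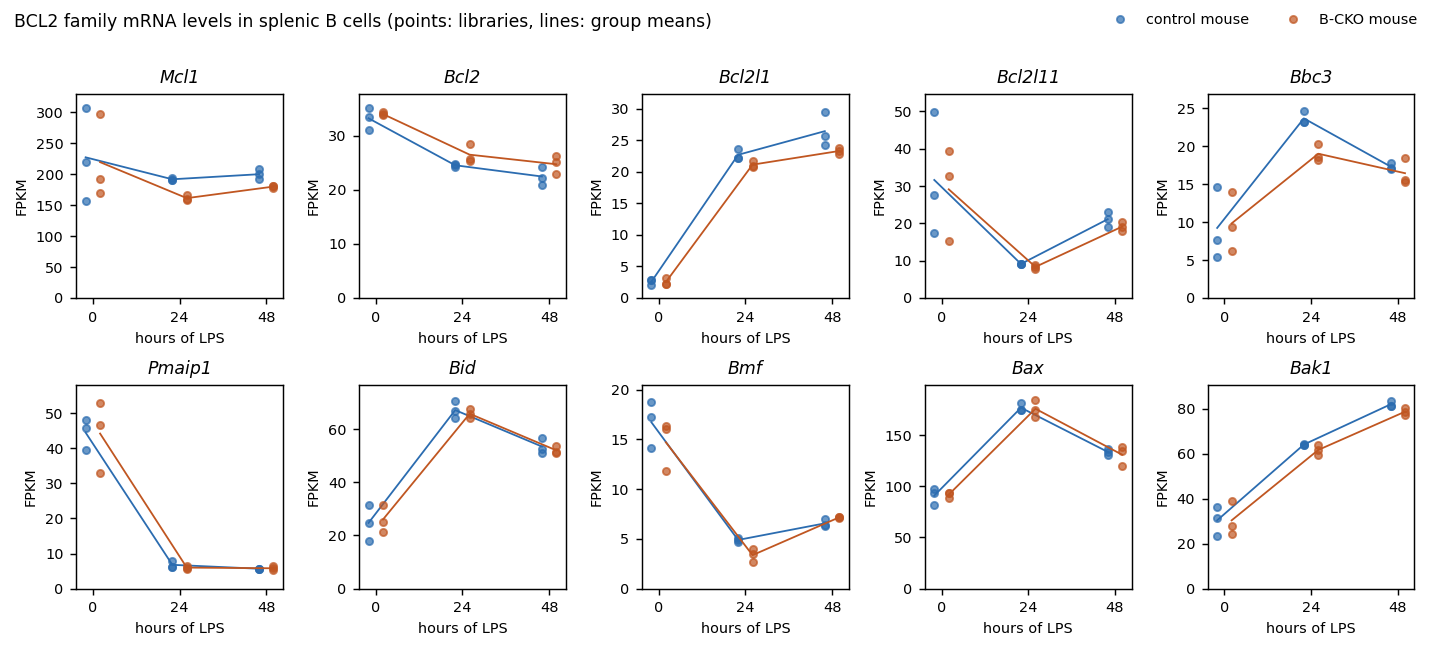
FPKM of each of the 10 genes (y axis, from 0) against hours of LPS (x axis, points of the 2 genotypes set slightly apart), with a point per library and lines through the means of the control and B-CKO groups. *Bcl2l1* goes from 2.07 to 3.15 FPKM at 0 h to 20.8 to 29.4 FPKM in culture, *Pmaip1* drops below 8 FPKM, and *Mcl1*, *Bcl2l11* and *Bbc3* spread most at 0 h.

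With 24 h of LPS, 9 of the 10 members passed the test in control cells (limma, adjusted p under 0.05 over 15531 genes), 5 higher and 4 lower, where 57.4% of all genes tested passed (26.7% higher and 30.7% lower). In B-CKO cells 9 of 10 passed as well, again 5 higher and 4 lower, with 59.8% of 15551 genes passing (27.5% higher and 32.3% lower). *Bcl2l1*, *Bid*, *Bbc3*, *Bak1* and *Bax* rose and *Pmaip1*, *Bcl2l11*, *Bmf* and *Bcl2* fell in both genotypes, and *Mcl1* was the member outside both counts. The median log2 change of the 10 members was 0.38 in controls and 0.29 in B-CKO, against -0.02 over all genes in each. From 24 h to 48 h, 6 of 10 passed in controls (44.9% of all genes) and 7 in B-CKO cells (45.7%), with changes of at most 2.31-fold. Of all genes, 20.1% were higher and 24.8% lower at 48 h than at 24 h in controls. A single fit of all 18 libraries, which takes in the wider spread at 0 h, left 3 called in each genotype on the second day, without *Bid* and *Bak1* in either, *Bbc3* in controls and *Mcl1* and *Bcl2l1* in B-CKO. Over the whole 48 h, 8 passed in each genotype (56.8% and 57.6% of all genes). Each pair of comparisons that has a time in common shares those libraries. In bulk RNA, fewer cells of a type and less RNA per cell cannot be told apart.

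**Figure D2:**
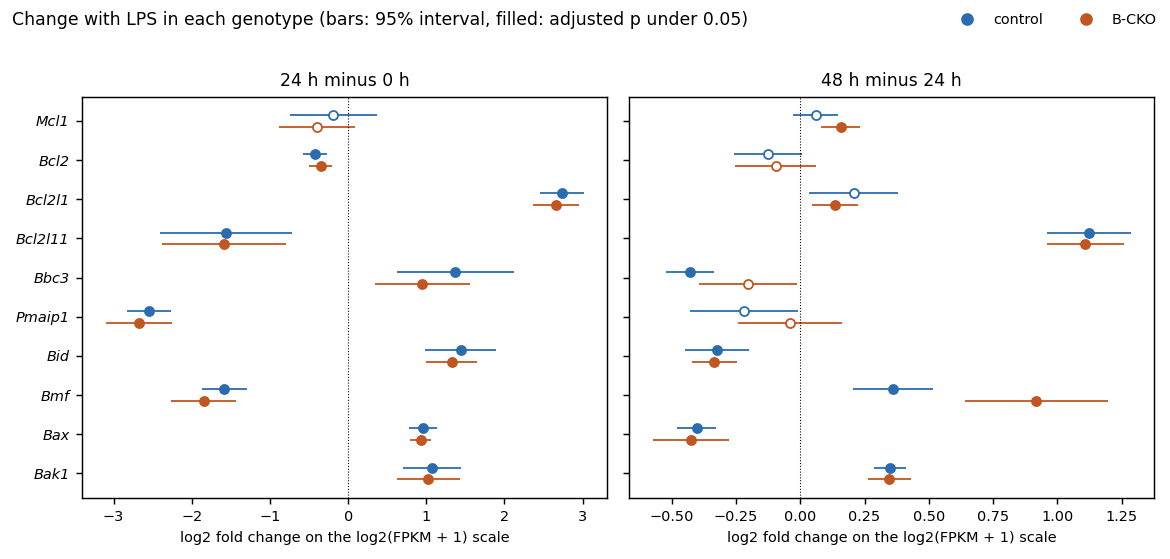
Log2 fold change of each member on the log2(FPKM + 1) scale (x axis) from 0 h to 24 h and from 24 h to 48 h, in control and B-CKO cells (the panels have different x ranges). Points are limma estimates from 3 against 3 libraries, bars their 95% intervals, and filled points have an adjusted p under 0.05. The intervals of both genotypes overlap for every member on the first day, and for every member but *Bmf* (0.36 in control and 0.92 in B-CKO) on the second.

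Among the pro-survival genes, *Bcl2l1* (gene ID 12048, chromosome 2, 152758732 to 152833803) had the largest rise of the 10 members (gene spans are RefSeq on GRCm38.p6). It was at 2.84, 2.83 and 2.07 FPKM in control replicates 1, 2 and 3 at 0 h, and 24 h of LPS brought these to 22.2, 23.7 and 22.2 FPKM. In B-CKO the values were 3.15, 2.25 and 2.17 FPKM at 0 h and 21.7, 20.8 and 20.9 FPKM at 24 h. All 6 cultured libraries thus lay far above all 6 resting ones, by 8.80-fold between the means in controls (log2 change 2.73, SE 0.115, limma adjusted p = 1.03e-05) and 8.38-fold in B-CKO (2.66, SE 0.122, 8.54e-06). At 48 h the control libraries were at 25.7, 24.2 and 29.4 FPKM and those of B-CKO at 23.8, 23.4 and 22.8 FPKM. The further step passed in B-CKO (log2 change 0.13, limma adjusted p = 0.0225) and not in controls (0.21, adjusted p = 0.0540). The B-CKO call was lost without B-CKO replicate 2 or 3 at 24 h or replicate 1 at 48 h (adjusted p = 0.0775, 0.0721 and 0.0736) and on the TPM scale (0.247), and the control step passed without control replicate 2 at 48 h (0.0266), with a pseudocount of 0.1 (0.0459), median-ratio scaling (0.0419) or array weights (0.0446), and with genes averaging under 1 FPKM left out, without and with the replicate block (0.0188 and 0.0118). Whether the step differed between genotypes was tested by the interaction, which did not pass (-0.07, adjusted p = 0.879).

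*Mcl1* (gene ID 17210, chromosome 3, 95656944 to 95663179), whose short-lived protein must be made continuously, was the most abundant member in every group but B-CKO at 24 h, where *Bax* was higher in all 3 libraries. At 0 h its levels were 306, 219.8 and 156 FPKM in control replicates 1 to 3 and 297, 192 and 169.5 FPKM in B-CKO. The 24 h levels were 194, 191 and 191 FPKM in control cells against 166, 158 and 159.9 FPKM in B-CKO, and those at 48 h 208, 192 and 200.45 FPKM against 180.4, 178 and 181 FPKM. Resting libraries thus differed from each other by up to 1.96-fold within a genotype, and cultured ones by at most 1.09-fold. The change from 0 h to 24 h did not pass in control (log2 change -0.19, 95% interval -0.75 to 0.37) or in B-CKO cells (-0.40, -0.88 to 0.08). It passed in controls without control replicate 3 at 0 h (-0.43, limma adjusted p = 0.0486) and was 0.05 without control replicate 1, and it passed in B-CKO without B-CKO replicate 3 at 0 h (-0.56, 0.0493), on the TPM scale (-0.57, 0.0415), and with the replicate block and genes averaging under 1 FPKM left out (0.0380), where all 10 members passed. From 24 h to 48 h *Mcl1* rose 1.11-fold in B-CKO cells (log2 change 0.16, SE 0.0322, limma adjusted p = 0.00666), while the control change of 0.06 (SE 0.0371) did not pass. The B-CKO call was lost on the TPM scale (0.10, adjusted p = 0.0724).

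*Bcl2* (gene ID 12043, chromosome 1, 106538176 to 106714290), which keeps resting B cells alive, fell with culture. Its 6 libraries at 0 h ranged from 31.0 to 35.2 FPKM, those at 24 h from 24.3 to 28.5 FPKM and those at 48 h from 20.9 to 26.3 FPKM, so no cultured library reached a resting one. The fall at 24 h was to 0.739 of the resting level in controls (log2 change -0.42, SE 0.0640, limma adjusted p = 0.00166) and to 0.779 in B-CKO (-0.35, SE 0.0609, 0.00263). The second day brought no called change, although without control replicate 2 at 48 h the control change of -0.18 passed (adjusted p = 0.0171). Of the summed pro-survival FPKM, *Mcl1* made up 82.4% to 88.95% in resting libraries and 76.8% to 81.3% in cultured ones, whereas *Bcl2l1* went from 0.824% to 1.10% at 0 h to 9.21% to 11.7% after it. These shares are descriptive, as FPKM sums leave out protein output and stability.

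Of the BH3-only genes, *Pmaip1* (gene ID 58801, chromosome 18, 66458604 to 66465558), whose product NOXA binds MCL1 in particular, fell most. Resting levels were 39.6, 45.9 and 48.1 FPKM in control and 33.0, 46.7 and 53.1 FPKM in B-CKO libraries. At 24 h they were 7.82, 6.22 and 6.28 FPKM against 5.81, 5.59 and 6.54 FPKM, and at 48 h 5.70, 5.63 and 5.63 FPKM against 5.76, 5.30 and 6.30 FPKM. No cultured library came near a resting one. The 24 h level was 0.152 of the resting level in controls (log2 change -2.55, SE 0.115, limma adjusted p = 1.26e-05) and 0.135 in B-CKO (-2.67, SE 0.174, 3.21e-05). The second day brought no called change in either genotype, although the control value of -0.22 passed with genes averaging under 1 FPKM left out, without and with the replicate block (adjusted p = 0.0315 and 0.0185).

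*Bcl2l11* (gene ID 12125, chromosome 2, 128126038 to 128162547), encoding BIM, fell and then partly returned. At 0 h it was at 17.4, 27.6 and 49.9 FPKM in control replicates 1 to 3 and at 15.2, 32.7 and 39.4 FPKM in B-CKO. All 6 libraries lay between 7.88 and 9.14 FPKM at 24 h, and the 3 control libraries there (9.14, 9.11 and 9.12 FPKM) were nearly equal. At 48 h the values were 19.1, 21.1 and 23.1 FPKM in control and 18, 20.4 and 19.0 FPKM in B-CKO. The fall at 24 h was to 0.288 of the resting mean in controls (log2 change -1.56, SE 0.348, limma adjusted p = 0.00876) and 0.286 in B-CKO (-1.59, SE 0.328, 0.00569). The return on the second day was 2.31-fold in controls (1.12, SE 0.0676, 5.9e-05) and 2.30-fold in B-CKO (1.11, SE 0.0630, 2.89e-05). Against 0 h, the 48 h level did not differ past the threshold (-0.44 and -0.48, adjusted p = 0.332 and 0.253). Without replicate 1 at 0 h, the library lowest in *Bcl2l11*, it did in both genotypes (-0.79, limma adjusted p = 0.0417 in control and -0.88, 0.00104 in B-CKO).

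*Bmf* (gene ID 171543, chromosome 2, 118528757 to 118549686), whose product is held at the cytoskeleton until released, moved in the same 2 steps at lower levels. Control libraries were at 14.2, 17.3 and 18.7 FPKM at 0 h, 4.85, 5.13 and 4.69 FPKM at 24 h, and 7.02, 6.27 and 6.39 FPKM at 48 h. B-CKO libraries were at 11.8, 16.0 and 16.3 FPKM, then 3.95, 3.50 and 2.63 FPKM, then 7.18, 7.24 and 7.08 FPKM. The groups of different times did not overlap within a genotype. The fall was to 0.292 of the resting level in controls (log2 change -1.58, SE 0.117, limma adjusted p = 7.34e-05) and 0.228 in B-CKO (-1.85, SE 0.170, 0.000142). The return was 1.34-fold in controls (0.36, SE 0.0651, 0.0042) and 2.13-fold in B-CKO (0.92, SE 0.117, 0.000794).

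*Bbc3* (gene ID 170770, chromosome 7, 16308398 to 16318334), the PUMA gene and a textbook p53 target, rose where *Bcl2l11* and *Bmf* fell. Control libraries were at 5.42, 7.70 and 14.6 FPKM at 0 h, 23.2, 23.3 and 24.7 FPKM at 24 h, and 17.1, 17.8 and 17.2 FPKM at 48 h. B-CKO libraries were at 6.22, 9.33 and 14.0 FPKM, then 20.3, 18.2 and 18.6 FPKM, then 15.5, 15.4 and 18.5 FPKM. Every cultured library was above every resting one. The rise at 24 h was 2.56-fold in controls (log2 change 1.37, SE 0.309, limma adjusted p = 0.00924) and 1.93-fold in B-CKO (0.95, SE 0.252, 0.0166), and the latter did not pass without B-CKO replicate 2 at 0 h or replicate 1 at 24 h (0.0542 and 0.0578). On the second day *Bbc3* fell to 0.732 of its 24 h level in controls (-0.43, SE 0.0392, 0.000239). The B-CKO change of -0.20 (SE 0.0801, 0.0817) did not pass, though it did without B-CKO replicate 3 at 48 h (0.00904), on the TPM scale (0.0234), and with genes averaging under 1 FPKM left out, without and with the replicate block (0.0348 and 0.0220). The higher level at 48 h than at 0 h, 1.88-fold in controls and 1.67-fold in B-CKO, passed narrowly (limma adjusted p = 0.0371 and 0.0438), and in each genotype it was lost on the TPM scale (0.0797 and 0.103) and without any 1 of the libraries compared other than replicate 3 at 0 h (0.0683 to 0.133).

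*Bid* (gene ID 12122, chromosome 6, 120893119 to 120917062), whose product links death receptors to mitochondria once caspase-8 has cut it, became the main BH3-only mRNA. It ranged from 18.1 to 31.6 FPKM in resting libraries, 64.0 to 70.5 FPKM at 24 h and 50.9 to 56.8 FPKM at 48 h. The rise was 2.72-fold in controls (log2 change 1.44, SE 0.187, limma adjusted p = 0.000823) and 2.53-fold in B-CKO (1.32, SE 0.135, 0.000223). The drop on the second day was to 0.796 and 0.791 of the 24 h level (adjusted p = 0.00249 and 0.000388). *Bid* took 12.1% to 32.3% of the summed BH3-only FPKM at rest and 58.9% to 65.5% at 24 h. *Pmaip1* went from 32.2% to 37.3% at rest to 5.20% to 7.15% in culture. The sum itself changed less, from 97.9 to 149.4 FPKM at rest to 102.0 to 114.2 FPKM at 24 h and 97.4 to 105.7 FPKM at 48 h.

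**Figure D3:**
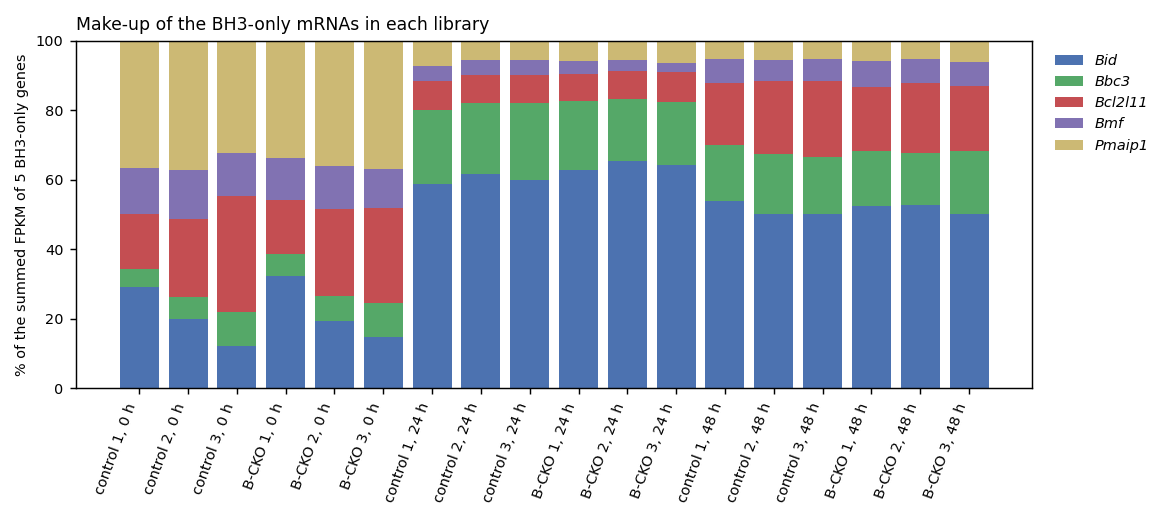
Share of each of 5 BH3-only genes in their summed FPKM (y axis, percent from 0 to 100) in each of the 18 libraries (x axis, genotype, replicate and hours of LPS). *Pmaip1* holds at least 32.2% in every resting library and at most 7.15% in every cultured one, *Bid* at least 50.04% in cultured libraries, and *Bcl2l11* is larger again at 48 h.

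Both effector genes were higher in culture, with different courses. *Bax* (gene ID 12028, chromosome 7, 45461695 to 45466903) was at 82.2 to 96.97 FPKM in resting libraries, 168 to 185 FPKM at 24 h and 120.4 to 138 FPKM at 48 h. It rose 1.95-fold in controls (log2 change 0.96, SE 0.0725, limma adjusted p = 8.26e-05) and 1.91-fold in B-CKO (0.93, SE 0.0546, 2.1e-05), and then fell to 0.756 and 0.744 of that level (adjusted p = 0.00014 and 0.00146). *Bak1* (gene ID 12018, chromosome 17, 27019812 to 27028627) was at 23.2 to 39.1 FPKM at rest, 59.6 to 64.5 FPKM at 24 h and 77.2 to 83.4 FPKM at 48 h. It rose 2.11-fold and 2.03-fold on the first day (log2 change 1.08 and 1.03, adjusted p = 0.00125 and 0.00195) and 1.28-fold in each genotype on the second (adjusted p = 0.000112 and 0.000296). The ratio of *Bax* to *Bak1* FPKM, 2.39 to 3.89 at rest and 2.70 to 2.94 at 24 h, was 1.502 to 1.755 at 48 h.

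Between genotypes no member was called different in resting cells, where some intervals were wide. At 0 h, 0 of 10 passed (0% of 15641 genes passed with limma, and 313 genes, 2% of them, but 0 members had an unadjusted p under 0.05), and the control and B-CKO libraries overlapped for each of them, with 3.87% of all genes not overlapping. Log2 differences ran from -0.18 for *Bmf* to 0.12 for *Bbc3*. The 95% intervals were narrow for *Bax* (-0.18 to 0.22) and *Bcl2* (-0.15 to 0.22) and wide for *Bcl2l11* (-1.229 to 1.048) and *Bbc3* (-0.84 to 1.07). Same-numbered resting libraries deviated together, and with the replicate number as a block the intervals were -0.42 to 0.24 for *Bcl2l11*, -0.11 to 0.35 for *Bbc3*, -0.23 to 0.16 for *Mcl1* and -0.33 to -0.03 for *Bmf*. In that fit 0 members passed (limma adjusted p from 0.844 to 1), and *Bmf* was the member with an unadjusted p under 0.05, beside 891 of 15641 genes.

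The spread at 0 h had a common order in both genotypes. Replicate 1 was highest in *Mcl1*, *Bcl2l1*, *Bid* and *Bak1* and lowest in *Bcl2l11*, *Bbc3*, *Pmaip1* and *Bmf*, and replicate 3 was the reverse, in control and B-CKO libraries alike. The 3 replicates had the same order in both genotypes for 8 of 10 members, the exceptions being *Bcl2* and *Bax*, and for 46.8% of the 9979 genes averaging 1 FPKM or more at 0 h. The ratio of *Mcl1* to *Bcl2l11* FPKM ranged from 3.13 to 17.7 in control and from 4.299 to 19.5 in B-CKO libraries at 0 h, and from 18.15 to 21.2 over both genotypes at 24 h. What a replicate number stands for is not given in the sources used here. 

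**Figure D4:**
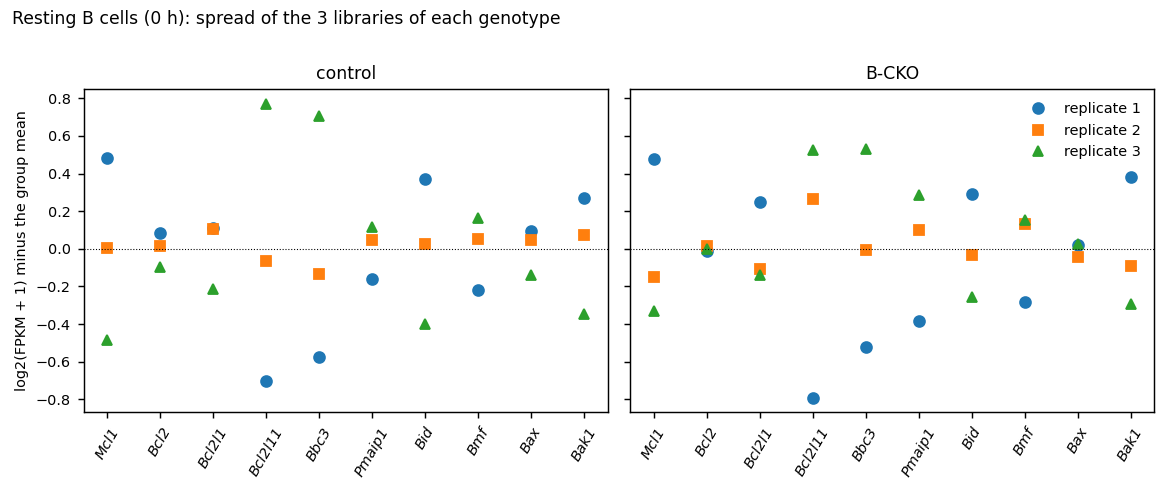
Log2(FPKM + 1) of each member in the 3 resting libraries of each genotype, minus the mean of that group (y axis), with a marker per replicate number. Replicates 1 and 3 sit on opposite sides for *Mcl1*, *Bcl2l11*, *Bbc3*, *Bid* and *Bak1* in both genotypes, with *Bcl2l11* spread 2.88-fold in control and 2.59-fold in B-CKO.

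At 24 h, 1 of 10 members passed between genotypes, where 0.0993% of 15104 genes passed. *Mcl1* was at 192 ± 1.94 FPKM (control) and 161 ± 4.04 FPKM (B-CKO; SD, n = 3), or 0.842 of the control level (log2 difference -0.25, SE 0.0261, 95% interval -0.31 to -0.19, limma adjusted p = 0.0421). All 3 B-CKO libraries lay below all 3 controls. The adjusted p is close to the threshold. It was 0.00591 when genes averaging under 1 FPKM were left out, 0.0526 with median-ratio scaling, 0.116 with the replicate block, 0.0935 to 0.218 without any 1 of the 6 libraries, and 1 in a single fit of all 18 libraries, which shares a single spread with the 0 h libraries, while the log2 difference lay between -0.27 and -0.23 in all of these. At 48 h the difference was -0.15 (SE 0.0419, 95% interval -0.25 to -0.05, adjusted p = 0.408), again with no overlap.

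The libraries of the 2 genotypes did not overlap at 24 h for 6 of 10 members, with 20.1% of all genes doing so. *Mcl1*, *Bcl2l1*, *Bcl2l11*, *Bmf* and *Bbc3* were lower in all B-CKO libraries (11.7% of all genes) and *Bcl2* was higher (8.43%), and 5 of these, all but *Bcl2*, had an unadjusted p under 0.05, as 16.3% of all genes had. The log2 difference of *Bmf* was -0.45 (SE 0.116, limma adjusted p = 0.146) and that of *Bbc3* -0.30 (SE 0.0474, adjusted p = 0.0724). With genes averaging under 1 FPKM left out both passed (0.0430 and 0.0159). *Bcl2l1* and *Bcl2l11* differed by -0.10 and -0.12 (adjusted p = 0.258 and 0.296) and *Bcl2* by 0.10 (adjusted p = 0.324). *Bax* and *Bid*, with log2 differences of -0.01 and -0.03, had intervals of -0.10 to 0.09 and -0.12 to 0.06. The median difference of the 10 members was -0.11, against -0.00464 over all genes. The 6 B cell markers also moved with genotype at 24 h, with sums of 2351 to 2530 FPKM in control and 2045 to 2120 FPKM in B-CKO libraries. Of these 6, 1 was called lower, 4 had an unadjusted p under 0.05 and 4 were lower in all B-CKO libraries (median -0.14), and their part in the member differences was not tested.

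At 48 h, 0 of 10 members passed, where 0.046% of 15210 genes did with limma, and 2 members, *Mcl1* and *Bcl2l1*, had an unadjusted p under 0.05, as 7.71% of all genes had. The libraries did not overlap for 4 members, with 11.1% of all genes doing so. *Mcl1*, *Bcl2l1* (log2 difference -0.17, adjusted p = 0.645) and *Bak1* (-0.06, adjusted p = 0.769) were lower in the B-CKO libraries and *Bmf* was higher (0.11, SE 0.0669, adjusted p = 0.772). The change over time did not differ between genotypes past the threshold for any member. In the interaction fits 0 of 10 passed for the first day (0% of 16182 genes, with 467 genes, 2.89%, and 0 members at an unadjusted p under 0.05) and 0 of 10 for the second (0% of 15844 genes, with 1158 genes, 7.31%, and 2 members, *Bmf* and *Bbc3*). The second-day log2 change of *Bmf* was 0.36 in controls and 0.92 in B-CKO, a difference of 0.56 (SE 0.138, 95% interval 0.25 to 0.86, limma adjusted p = 0.485). That of *Bbc3* was -0.43 in controls and -0.20 in B-CKO, closer to 0 in B-CKO by 0.23 (SE 0.0934, limma adjusted p = 0.649).

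**Figure D5:**
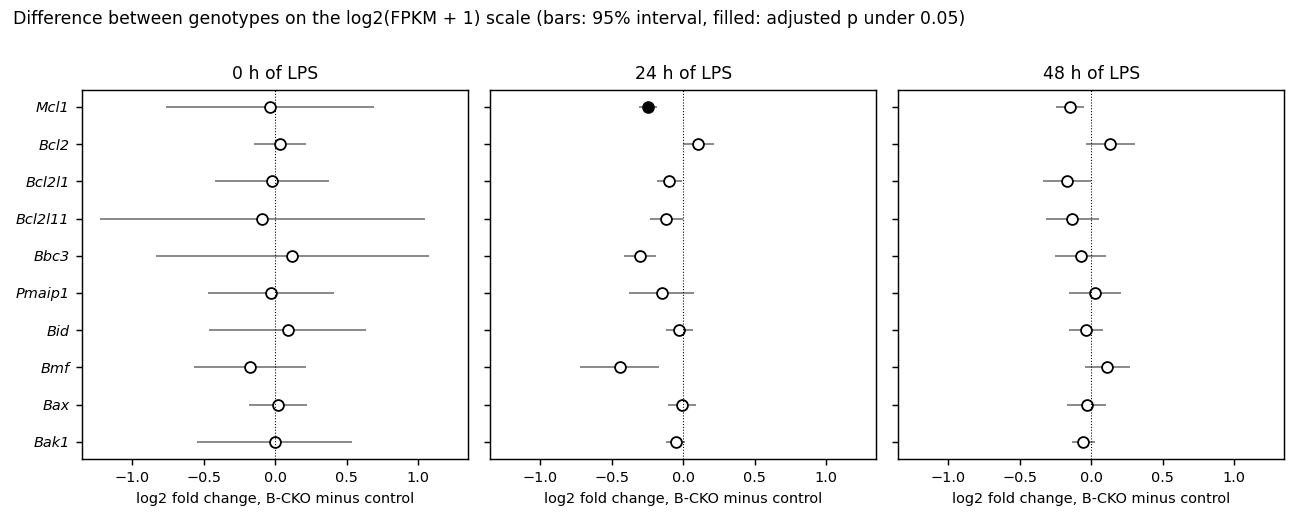
Log2 difference between B-CKO and control libraries (x axis) for each member at 0 h, 24 h and 48 h, from 3 against 3 libraries, with 95% intervals from limma, and the filled point with an adjusted p under 0.05. Intervals are widest at 0 h, *Mcl1* at 24 h is the filled point at -0.25, and *Bmf* lies at -0.45 at 24 h and at 0.11 at 48 h.

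Of the 12 other BCL2 family genes in the table, 5 rose in control cells at 24 h and 0 fell, and 8 rose in B-CKO and 0 fell. Of all genes, 26.7% were called higher and 30.7% lower in controls, and 27.5% and 32.3% in B-CKO. The median log2 change of the 12 was 0.27 in controls, against -0.02 over all genes. *Bcl2a1b* and *Bcl2a1d*, encoding the NF-kappaB induced pro-survival protein A1, changed most. *Bcl2a1d* went from 14.6 ± 2.30 to 170.3 ± 12.3 FPKM (SD, n = 3, 11.7-fold) and *Bcl2a1b* from 43.2 ± 13.0 to 183 ± 15.5 FPKM (4.23-fold), with B-CKO rises of 12.2-fold and 4.70-fold. Both fell on the second day, to 0.639 and 0.677 of the 24 h level in controls. Reads of these near-identical copies could be split between them, so that the values of each copy are uncertain. *Bcl2a1b* and *Bcl2a1d* together made up 11.9% to 22.75% of the pro-survival FPKM, when added to the 3 pro-survival members, in resting libraries and 57.55% to 64.2% at 24 h. *Bad*, a BH3-only gene, rose 1.55-fold in controls (limma adjusted p = 0.0409) and 1.53-fold in B-CKO (0.00191). *Hrk*, *Bik* and *Bok* stayed under 1 FPKM in every library.

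The counts of the next lists at 24 h in controls stand beside 26.7% of all genes called higher and 30.7% lower. Downstream of the mitochondria, 3 of 8 apoptosome and caspase genes rose in controls at 24 h and 1 fell, with a median of 0.14. *Cycs*, the cytochrome c gene, went from 19.5 ± 2.53 to 79.8 ± 4.49 FPKM, 4.09-fold. *Casp6* fell to 0.404 and then rose 2.26-fold, and *Apaf1*, the scaffold of the apoptosome, rose 1.60-fold on the second day. All 8 genes passed between 24 h and 48 h in each genotype, 5 higher and 3 lower, where 44.9% (control) and 45.7% (B-CKO) of all genes passed. All 4 mitochondrial partner genes rose on the first day in both genotypes, among them *Vdac1*, *Vdac2* and *Vdac3* (2.97, 2.55 and 2.93-fold in controls), and *Mtch2*, a receptor for cut BID, rose 2.94-fold in B-CKO.

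Of 8 IAP and IAP antagonist genes, 3 rose and 4 fell in controls at 24 h (median -0.06). *Birc5*, encoding survivin, which also serves cell division, rose 16.4-fold, and *Birc2* and *Birc3*, encoding cIAP1 and cIAP2, fell to 0.453 and 0.419. Of 8 death receptor genes, 1 rose (*Fadd*, 1.49-fold) and 1 fell (*Tnfrsf10b*, the TRAIL receptor gene, to 0.365), with a median of 0.15. *Fas* rose 1.80-fold on the second day in controls and 2.41-fold in B-CKO, and *Cflar*, encoding the caspase-8 inhibitor FLIP, fell to 0.601 and 0.629.

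The p53 pathway and the listed regulators of BH3-only genes were listed because they act on these members. Of 11 p53 pathway genes tested at 24 h in controls, 4 rose and 5 fell (median 0.10). *Trp53inp1* and *Sesn1* fell to 0.147 and 0.198, and *Phlda3* went from 0.117 ± 0.0231 to 2.73 ± 0.335 FPKM. All 6 regulators passed in both genotypes, 1 higher and 5 lower (median -1.31 in controls), where 57.4% and 59.8% of all genes passed, 30.7% and 32.3% lower. *Ddit3* (CHOP) fell from 94.2 ± 28.7 to 8.62 ± 0.988 FPKM, *Foxo1* from 94.3 ± 32.97 to 23.6 ± 1.27 FPKM, and *E2f1* rose 7.18-fold. On the second day *Foxo3* rose 1.42-fold while *Myc* fell to 0.467 of its 24 h level. *Myc* was highest at 0 h, with control means of 229.9 FPKM at 0 h, 113.2 FPKM at 24 h and 52.9 FPKM at 48 h. In B-CKO the means were 264.4, 118.1 and 52.1 FPKM. Of 8 genes of MCL1 and BH3-only protein turnover, 2 rose and 2 fell on the first day (median -0.08). *Dynll1* and *Dynll2*, encoding the light chains that hold BIM and BMF, rose 2.29-fold and 2.16-fold, and *Fbxw7*, encoding a ligase subunit that marks MCL1, fell to 0.611. *Huwe1*, another MCL1 ligase gene, fell to 0.695 on the second day.

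Between genotypes, 0 genes of these 8 lists passed at 0 h, 24 h or 48 h with limma, and 1 of 64, 17 of 65 and 7 of 66 had an unadjusted p under 0.05, beside 2%, 16.3% and 7.71% of all genes. At 24 h the list medians lay between -0.13 (p53 pathway, 5 of 11 genes with an unadjusted p under 0.05 and these 5 lower in all B-CKO libraries) and 0.07 (mitochondrial partners). Within the p53 list, the values were -0.50 for *Trp53inp1* and 0.03 for *Trp53*, with limma adjusted p = 0.0790 and 0.783.

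Across the 18 libraries, which share the 3 times, members followed different sets of genes, by Pearson's r of log2(FPKM + 1) over 9997 genes. *Bcl2l1* was most like *Atp5g3*, *Txn1* and *Ube2l3* (r = 0.996, 0.995 and 0.995), and *Bid* most like *Ticam1*, *Trp53* and *Mrps12* (0.994, 0.994 and 0.993). *Pmaip1* came closest to *Ddit3*, *Gm6377* and *Ccnl1* (0.996, 0.996 and 0.995), and *Bcl2l11* to *Ubn1*, *Tfdp2* and *Scd1* (0.969, 0.966 and 0.962). *Bmf* was nearest to *Neu1*, *Klf13* and *Zfp703* (0.979, 0.978 and 0.977) and *Bbc3* to *Etf1*, *Ankrd33b* and *Arl8b* (0.956, 0.953 and 0.952). *Bax* followed *Psme2*, *Txn2* and *Isyna1* (0.993, 0.989 and 0.989), *Bak1* followed *Rpe*, *Ppp1ca* and *Jpt1* (0.995, 0.992 and 0.991), and *Bcl2* followed *Aim2*, *Abhd1* and *Taf7* (0.966, 0.957 and 0.951). *Mcl1*, which varied mostly among resting libraries, had the weakest matches, *Ormdl3*, *Hhex* and *Lfng* (0.929, 0.924 and 0.917). Among members themselves, *Bcl2l1* and *Pmaip1* were the most opposed pair (r = -0.994) and *Bcl2l1* and *Bak1* the most alike (0.964). These r describe the libraries, which share their times, and were not computed within a time.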

How the data were processed

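RNA-seq libraries were made from B cells purified from spleen, with 1 mouse per replicate. The authors mapped reads to mm10 and deposited FPKM values with 2 decimals, made with bowtie2, Cufflinks and RSEM per the methods of the study (BWA, Bowtie2, RSEM and DESeq2 per the submitters' processing notes, versions not given in the sources used here). FPKM are scaled to transcript length and mapped fragments by the authors and hold no counts. The depth in fragments is therefore unknown, no limit of detection was computed, and DESeq2 was not used here. Of 16545 gene IDs, 16512 matched a RefSeq symbol on GRCm38.

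The log2(FPKM + 1) of each library was tested with limma 3.58.1 in R 4.3.3 (lmFit, eBayes with trend, two-sided, Benjamini-Hochberg over all genes above 0 in any compared library, threshold 0.05), on the 6 libraries compared or on 12 for interactions. Folds are ratios of mean FPKM, log2 changes are on the log2(FPKM + 1) scale and are smaller for low genes, and intervals are 95%. The fits were tested on simulated data. Relative depth came from steps in 61 of 1734 low genes. It was recovered within 0.08% in a simulation of whole fragments with a fixed step per gene. The method assumes the same steps, so its error in the deposited values is not known. Python 3.11.15, numpy 2.4.6, pandas 2.3.3 and matplotlib 3.10.9 made the other values and figures.

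The members, lists and tests were chosen with earlier results of these data known. All 10 members are named in every comparison, and of each other list up to 3 genes per comparison with the largest change among those with adjusted p under 0.05, libraries that do not overlap and a mean of at least 1 FPKM, of which the text gives a part. The rule for like genes was the 3 highest correlations. *Trp53*, *Hrk*, *Bik* and *Bok*, the *Trp53inp1* genotype value and *Cdca7* were named after their values were seen. *Bcl2l10* and *Trbc2* had no match in the table. Results of some genes are not reported here.

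Same-numbered libraries deviated together most at 0 h between genotypes (correlation across genes 0.854, 0.468 and 0.789, other pairs -0.342). The values were lower between 24 h and 48 h in B-CKO (0.126, 0.183 and 0.117, other pairs -0.071). They were similar between genotypes at 24 h (0.104, 0.20 and 0.091, other pairs -0.066). From 0 h to 24 h they were lower still (0.042, 0.035 and 0.044 in controls, 0.051, 0.055 and 0.044 in B-CKO). A same-numbered pair was negative between genotypes at 48 h (-0.037) and in controls between 48 h and 24 h (-0.068) or 0 h (-0.087). That the numbers pair samples is thus a hint from the data, clearest at 0 h. Alternatives were a pseudocount of 0.1, a filter leaving out genes averaging under 1 FPKM, TPM, median-ratio scaling, the number as a block, a single fit of all 18 libraries, array weights per group and leaving out each library.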

Additional observations from a re-analysis of the deposited data

Results flagged for a closer look

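*Bmf* was flagged by its values, because the 3 B-CKO libraries lay on opposite sides of the 3 controls at 2 times. At 24 h they were at 3.95, 3.50 and 2.63 FPKM against 4.85, 5.13 and 4.69 FPKM in controls (log2 difference -0.45). At 48 h they were at 7.18, 7.24 and 7.08 FPKM against 7.02, 6.27 and 6.39 FPKM (log2 difference 0.11). The libraries of the genotypes did not overlap for 20.1% of all genes at 24 h and 11.1% at 48 h. The share of all genes that changed sides was not computed. The test of the difference itself, the interaction over 12 libraries, gave 0.56 with a limma adjusted p of 0.485, and over its alternatives the adjusted p ran from 0.267 to 1. In groups of 3 libraries single outlying libraries were not tested.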

How the results depend on the processing

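The count of 1 member called between genotypes at 24 h was 3 when genes averaging under 1 FPKM were left out (*Mcl1*, *Bbc3* and *Bmf*) and 1 with a pseudocount of 0.1, TPM or array weights. It was 0 with median-ratio scaling, in the single fit of all 18 libraries, and without any 1 library (0 to 0). The replicate block gave 0 members (*Mcl1* adjusted p = 0.116 with limma) and 5 of 15104 genes in place of 15. Same-numbered libraries deviated together weakly there (correlation across genes 0.104, 0.20 and 0.091, other pairs -0.066). The replicate block with the 1 FPKM filter, chosen after seeing the data, gave 3 members. Over all genes, the 15 calls at 24 h became 388 with the filter, 46 with a pseudocount of 0.1, 704 with block and filter, and 5 to 8 without 1 library. The 7 calls at 48 h became 29 with the filter, 3 with the block, 116 with both, 11 in the single fit and as few as 0 without 1 library. The 0 calls at 0 h became 2 with the filter, 22 with block and filter and 23 in the single fit, and the 0 interaction calls at most 3. In the single fit of all 18 libraries the second-day counts were 3 in controls and 3 in B-CKO, in place of 6 and 7, and the 3 control calls lost were *Bbc3*, *Bid* and *Bak1*. The other counts of members called stayed within 1.5 times of the reported ones under every alternative run, and the replicate block changed no other count.

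TPM moved the median of genes of at least 1 FPKM from 0.02 to -0.14 (control) and from 0.00721 to -0.14 (B-CKO) at 24 h against 0 h, and from -0.01 to -0.21 and from -0.00582 to -0.21 at 48 h. Values near 0 changed sign. With median-ratio scaling *Bak1* at 0 h was 0.0082 and *Bax* at 24 h 0.0118 between genotypes. Ranges without 1 library that crossed 0 were, between genotypes at 0 h, *Bak1* -0.20 to 0.14, *Bax* -0.0517 to 0.0660, *Bbc3* -0.17 to 0.47, *Bcl2* -0.0134 to 0.0759, *Bcl2l1* -0.15 to 0.0445, *Bcl2l11* -0.44 to 0.30, *Bid* -0.11 to 0.27, *Mcl1* -0.28 to 0.20 and *Pmaip1* -0.17 to 0.16. At 24 h they were *Bax* -0.0461 to 0.0234 and *Bid* -0.0589 to 0.00630, and at 48 h *Bax* -0.0711 to 0.0272, *Bid* -0.0720 to 0.00646 and *Pmaip1* -0.0279 to 0.0784. For the interaction on the first day they were *Bak1* -0.20 to 0.14, *Bax* -0.0756 to 0.0420, *Bcl2l1* -0.14 to 0.0521, *Bcl2l11* -0.42 to 0.32, *Bid* -0.30 to 0.0834, *Mcl1* -0.45 to 0.0351 and *Pmaip1* -0.31 to 0.0208, and on the second day *Bak1* -0.0278 to 0.0196, *Bax* -0.0614 to 0.0369, *Bcl2* -0.0215 to 0.0848, *Bcl2l1* -0.13 to 0.00358, *Bcl2l11* -0.0804 to 0.0502 and *Bid* -0.0438 to 0.0351. For *Mcl1* in controls they were -0.43 to 0.0504 at 24 h and -0.37 to 0.11 at 48 h against 0 h, and for *Pmaip1* in B-CKO on the second day -0.0946 to 0.0161. None of these results passed as reported. The cause of these changes was not tested. The wide spread between resting libraries, the unknown depth and 3 libraries per group limit what can be resolved.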
